A study of Mus musculus with 6 samples.

Results

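The 6 genes described here are Myc, Bmyc, Max, Mxd1, Mxd4 and Mnt, taken by symbol from the 32285 genes of the deposited matrices, and all 6 were found. They were selected on the Treg comparison by genotype, in which the Bmyc level had already been seen to be lower in cko, and on their place in the network, so their Treg values by genotype are a description with no test. Leukocytes (live CD45+ cells) were sorted from tumours grown under the skin from MC38, a mouse colon carcinoma line, at day 25, and were profiled by droplet 5′ single-cell RNA sequencing with T cell receptor enrichment. The 3 ctr libraries came from mice with wild-type Ctcf in regulatory T cells (Treg cells), and the 3 cko libraries from mice with a tamoxifen-inducible knockout of Ctcf, the gene of a chromatin architecture protein, in Treg cells. The other cell classes of cko tumours are thus, by the labels, unedited. The labels call the libraries biological replicates. The sources used here do not give the driver of the deletion, the tamoxifen given to ctr mice, age, strain or the number of animals behind a library.

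MYC is a transcription factor that pairs with MAX and binds the E-box letters in DNA, where it raises transcription of genes for ribosome production, nucleotide synthesis and glycolysis. MXD1, MXD4 and MNT pair with the same partner and bind the same letters but recruit repressors, so activators and repressors compete for MAX. Activated T and NK cells are known to need Myc to grow and divide. Bmyc is a rodent relative that resembles the N-terminal part of MYC and lacks the part that pairs with MAX and binds DNA.

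In GRCm38, with GENCODE M21 positions, Myc lies on chromosome 15 from 61985391 to 61990374 and Bmyc on chromosome 2 from 25706739 to 25707721, both on the plus strand. Max lies on chromosome 12 from 76937269 to 76962201 on the minus strand. Mxd1 lies on chromosome 6 from 86647042 to 86669161 and Mxd4 on chromosome 5 from 34173883 to 34187720, both on the minus strand. Mnt lies on chromosome 11 from 74830920 to 74845725 on the plus strand. All are annotated as protein coding.

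RefSeq promoter windows (GRCm38.p6, 250 bases before to 50 after the gene start) matched 5 of the 6 genes, Bmyc, Max, Mxd1, Mxd4 and Mnt. They were searched for the E-box CACGTG, which reads the same on both strands, because it is the site the network itself binds. It was present in 3 of the 5 windows, those of Max, Mnt and Mxd4, and in 7.15% of the 32851 windows of all genes. The windows were also searched on both strands for CCNNNAGNNGGCNC, core letters of the CTCF motif, because the study removes that factor. These letters were chosen after the Bmyc window had been read. Their match in the Bmyc window was thus fixed in advance, and nothing is read from it. They were found in none of the other 4 windows and in 2.73% of all windows. The stretches around these matches are shown 5′ to 3′ on the gene's own strand, with the matched letters in capitals. They come from chr2:25706658-25706749 (Bmyc, plus strand), chr12:76962238-76962301 (Max, minus strand), chr11:74830751-74830856 (Mnt, plus strand) and chr5:34187874-34187960 (Mxd4, minus strand). A match is a run of letters and shows no binding, and the matches do not overlap each other.
Bmyc: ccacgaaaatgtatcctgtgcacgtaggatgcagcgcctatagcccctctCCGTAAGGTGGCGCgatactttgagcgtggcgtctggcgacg
Max: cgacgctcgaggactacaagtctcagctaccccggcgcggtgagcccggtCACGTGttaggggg
Mnt: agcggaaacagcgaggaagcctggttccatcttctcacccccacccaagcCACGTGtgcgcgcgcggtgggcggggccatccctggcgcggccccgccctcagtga
Mxd4: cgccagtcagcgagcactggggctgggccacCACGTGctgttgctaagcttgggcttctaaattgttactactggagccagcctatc
The match began 3 bases before the RefSeq start of Max, 123 before that of Mnt, 219 before that of Mxd4 and 171 before that of Bmyc. The RefSeq start of Bmyc is not its GENCODE start at 25706739. The Bmyc window ran from 25706629 to 25706928.

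Cells were gated on marker transcripts, none of them a gene of the network. Counts of unique molecular identifiers (UMIs) were summed per library and class, and levels are those counts scaled to 1000000 UMIs of that sum (CPM), which are compared within a gene only. Of 37148 cells kept, 26632 fell in the 5 classes: 1619 Treg, 1362 conventional CD4, 10171 CD8, 1733 NK and 11747 myeloid cells. Sums held between 381633 and 28587371 UMIs. Check markers of Treg, NK and myeloid cells, all outside the gates, were highest in their own class in the ctr means. There 5 Treg genes summed to 4866 CPM in Treg cells, 5 NK genes to 5686 CPM in NK cells and 8 macrophage genes to 15725 CPM in myeloid cells. Levels of the check markers of conventional CD4 and CD8 cells are not given here. Ctcf itself was between 77.9 and 98.6 CPM in ctr and between 54.4 and 81.3 CPM in cko Treg cells, so the groups overlapped (log2 change -0.38 ± 0.17 SE, adjusted p = 0.402, edgeR). Of the gated Treg cells, 677 held a Foxp3 UMI, and the others were gated by Il2ra with Ikzf2. Libraries cko 1 and cko 3 shared 197 paired T cell receptor clonotypes, while other pairs of libraries shared at most 3. Cells of the shared clonotypes made up 82% of the T cell receptor cells of cko 1 and 69.8% of those of cko 3. The labels do not say whether these libraries came from separate animals. Should they share an animal, each n = 3 of cko below counts 2 animals, and the SDs and p-values can be too small. Results are therefore also given with both libraries added together where that ends a call. Library cko 2 stood apart in 3 B and plasma cell genes, which summed to 93.9 to 155 CPM in its classes and to at most 25.3 CPM in those of the other 5 libraries.

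In the 3 ctr libraries Myc was highest in NK and CD8 cells and Bmyc in Treg cells. The mean Myc level was 181 ± 35.6 CPM (SD, n = 3) in NK cells and 88.9 ± 11.8 in CD8 cells, then 38.6 ± 16 in conventional CD4, 34.7 ± 13.7 in Treg and 21.2 ± 3.52 in myeloid cells. NK cells were above CD8 cells (log2 difference 0.95 ± 0.10 SE, adjusted p = 7.18e-08, edgeR quasi-likelihood test with the library as a block), and CD8 cells were above conventional CD4 cells (1.32 ± 0.17, adjusted p = 9.47e-06). Conventional CD4 and Treg cells did not differ beyond their spread (0.15 ± 0.21, adjusted p = 0.753). Myeloid cells were below Treg cells (-0.31 ± 0.13, adjusted p = 0.0450), a call that was lost in 6 of 8 alternatives, among them those without ctr replicate 2 (0.552) or 3 (0.167). Across classes TMM, edgeR's scaling for composition, moved fitted differences away from ratios of CPM on the log2 scale: effective library sizes relative to Treg cells shifted by -0.40 for myeloid cells and by -0.10 to 0.04 for the others. Fitted differences of myeloid cells are therefore higher than ratios of CPM means by about that amount. In the cko libraries the same test between CD8 and Treg cells did not pass for Myc (0.09, adjusted p = 0.818), beside 1.47 in ctr (adjusted p = 6.05e-09).

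Bmyc ran in another order over the same classes. It averaged 287 ± 141 CPM in Treg cells, 87.4 ± 38.1 in conventional CD4, 54.7 ± 6.12 in myeloid, 20.5 ± 3.97 in CD8 and 10.05 ± 1.79 in NK cells. Conventional CD4 cells were below Treg cells (-1.76 ± 0.36, adjusted p = 0.0162), and CD8 cells were below conventional CD4 cells (-1.90 ± 0.43, adjusted p = 0.0143). Both calls were lost without ctr replicate 2 (adjusted p = 0.0691 and 0.0701) and without ctr replicate 3 (0.287 and 0.123). Neighbours in this order that did not differ beyond their spread were conventional CD4 and myeloid cells (adjusted p = 0.821) and CD8 and NK cells (0.0823, and 1.72e-04 without ctr replicate 1).

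Max, the shared partner, ran from 69.3 ± 9.21 CPM in Treg cells to 105 ± 19 in CD8 cells. CD8, NK and myeloid cells were above Treg cells in Max, by 0.69 ± 0.11 on the log2 scale in CD8 cells (adjusted p = 2.20e-05), 0.51 ± 0.11 in NK cells (6.33e-04, and 0.0510 without ctr replicate 3) and 0.51 ± 0.10 in myeloid cells (2.01e-04). The last of these rested on the scaling: without TMM it was 0.10 (adjusted p = 0.352), and Max in myeloid cells was then below that in CD8 cells (-0.49, 2.42e-05) and NK cells (-0.37, 0.00109). With TMM, NK, myeloid and conventional CD4 cells did not differ from each other in Max beyond their spread (adjusted p from 0.129 to 0.961).

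The 3 repressors differed in where they were highest. Mxd1, known to be induced as myeloid cells mature, was at 252 ± 26.6 CPM in myeloid cells, 134 ± 12.5 in Treg, 132 ± 30.2 in conventional CD4, 61.9 ± 13.9 in CD8 and 60.5 ± 1.23 in NK cells. Myeloid cells exceeded Treg cells by 1.30 ± 0.13 on the log2 scale (adjusted p = 1.60e-07). Treg and conventional CD4 cells did not differ beyond their spread (adjusted p = 0.766), nor did CD8 and NK cells (0.637). Mxd4, a repressor of resting and differentiated cells, was lowest in myeloid cells: 133 ± 30.6 CPM in Treg, 117 ± 10.9 in conventional CD4, 59.3 ± 1.02 in CD8, 57.7 ± 4.97 in NK and 25.2 ± 3.03 in myeloid cells. The log2 difference of Mxd4 between myeloid and NK cells was -0.83 ± 0.13 (adjusted p = 2.38e-05). Mnt, the broadly expressed repressor, was at 20.7 ± 3.55 CPM in myeloid, 13.9 ± 1.17 in NK, 11.3 ± 0.946 in CD8, 9.60 ± 3.10 in Treg and 6.89 ± 4.81 in conventional CD4 cells, and myeloid cells were above NK cells (0.95 ± 0.15, adjusted p = 1.02e-05).

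Over the 10 pairs of classes, the number of the 6 genes that passed reads against the share of all 11941 tested genes that passed. Between conventional CD4 and Treg cells 1 of 6 passed, against 9.88% of all genes, and between NK and CD8 cells 1 of 6, against 36.1%. CD8 against Treg gave 5 of 6 (all genes 30.8%), NK against Treg 6 of 6 (44.5%) and myeloid against Treg 6 of 6 (66.1%). CD8 and NK cells each differed from conventional CD4 cells in 5 of 6 genes, with all genes at 19.9% and 33.3%, and myeloid cells in 3 of 6, with all genes at 54.6%. Myeloid cells differed from CD8 cells in 5 of 6 (73.4%) and from NK cells in 5 of 6 (68.4%). The pairs share their libraries. With cko in place of ctr libraries, 11 of these calls were lost. Against Treg cells they were, in CD8 cells, Myc (above), Max (adjusted p = 0.349) and Mxd4 (0.0506), in NK cells Max (0.0712) and Mxd4 (0.0589), and in myeloid cells Myc (0.205) and Max (0.0674). Against conventional CD4 cells they were Myc (adjusted p = 0.121) and Max (0.765) in CD8 cells, and Mxd1 (0.104) and Mnt (0.705) in NK cells. Within ctr this last call, of Mnt in NK against conventional CD4 cells, was lost without ctr replicate 2 (0.103) or 3 (0.297). It was also lost without the library as a block (0.0555). The call of Mnt in NK against Treg cells was lost without ctr replicate 1 (0.0840) or 2 (0.206). That of Max in CD8 against conventional CD4 cells was lost without ctr replicate 2 (0.243) or 3 (0.0792). It was also lost without TMM (log2 difference 0.30, adjusted p = 0.107).

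**Figure D1:**
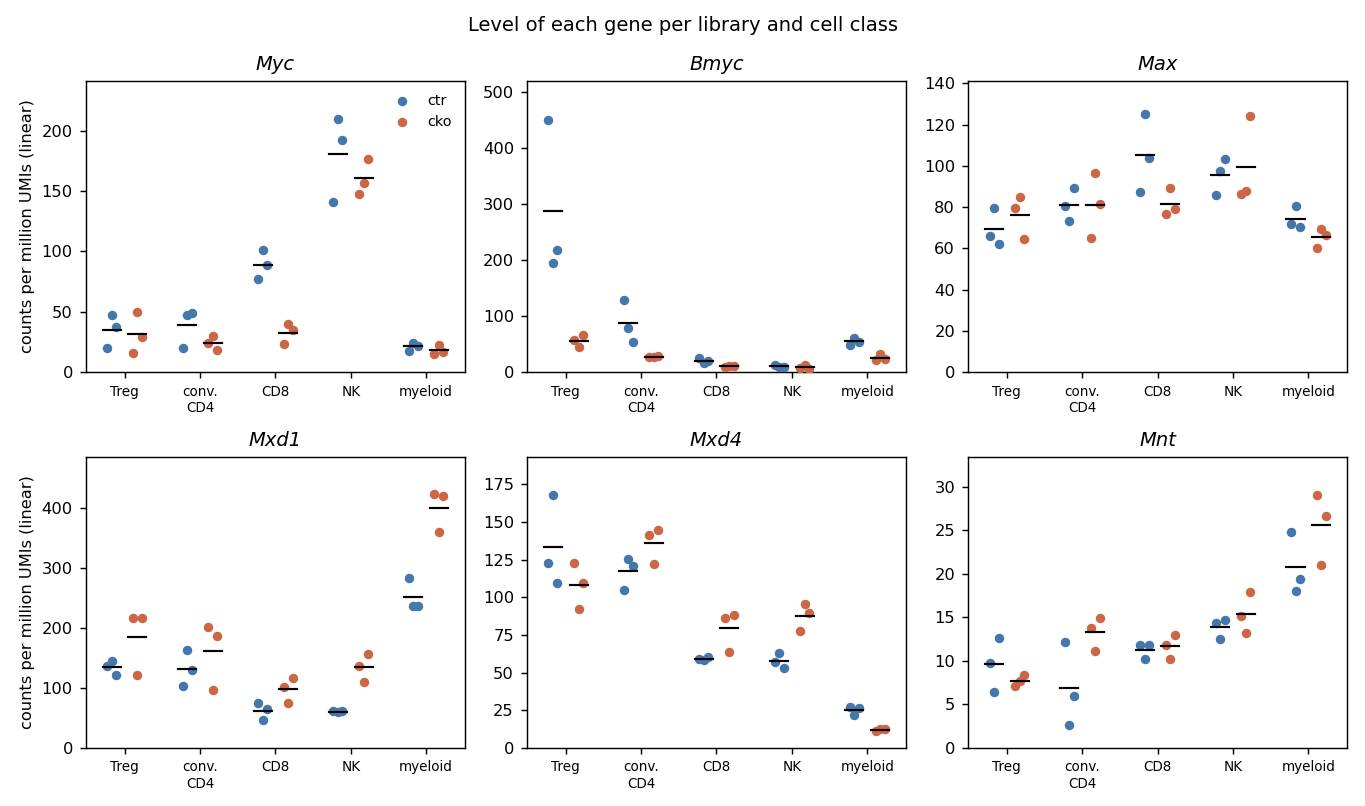
Level of each of the 6 genes in CPM, for each library (points) with the group mean, in the 5 classes, ctr beside cko. Bmyc is highest in ctr Treg cells (450.0, 194 and 218 CPM), Myc in NK cells, and in CD8 cells every ctr library (77, 101 and 88.9 CPM) is above every cko library (23, 39.8 and 34.4 CPM) in Myc.

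By genotype, Treg cells are the class that carries the knockout. Bmyc was at 450.0, 194 and 218 CPM in ctr libraries 1 to 3 and at 57.1, 45 and 65.7 CPM in cko libraries 1 to 3. The groups did not overlap, and ctr 1 stood above the other ctr libraries. The fitted log2 change was -2.40 ± 0.37 (SE), and without ctr replicate 1 it was -1.90. It was -2.30 in Treg cells with a UMI of Ccr8, the receptor of activated tumour Treg cells, and -2.31 in those without. In sums of this kind, fewer cells that express a gene and less RNA per cell cannot be told apart.

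The other 5 genes overlapped between the groups in Treg cells. Myc was at 19.9, 46.9 and 37.2 CPM in ctr and at 16, 50.1 and 29.3 CPM in cko. The fitted log2 changes were -0.11 ± 0.42 for Myc, 0.11 ± 0.16 for Max, 0.43 ± 0.22 for Mxd1, -0.33 ± 0.19 for Mxd4 and -0.32 ± 0.33 for Mnt. Of all 9383 genes tested in Treg cells 1.02% were called by edgeR. That the groups did not overlap in 1 of the 6 genes is another measure, so it cannot be set against that share. The share of all genes without overlap is not given here, and nothing is read from the count. Myc in Treg sums rested on 18 to 146 UMIs a library, and Bmyc on 64 to 1109.

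Conventional CD4 cells, unedited by the labels, also had the lower Bmyc levels in cko. Bmyc was at 129, 78.6 and 54.4 CPM in ctr and at 26.8, 27.4 and 28.9 CPM in cko. The groups did not overlap and the ctr mean was 3.15-fold above the cko mean, yet the difference did not pass the test (log2 change -1.64 ± 0.30, adjusted p = 0.104). None of the 6 genes passed in this class by edgeR, where 0.0708% of all genes did. At an unadjusted p under 0.05, 2 of the 6 were below ctr, Bmyc and Myc, against 6.92% of all genes at that p in either direction, and DESeq2 called 1, Bmyc (adjusted p = 0.00225). Over the alternatives the adjusted p of Bmyc ran from 2.90e-11 to 0.48, with 0.0336 under the replicate block and 0.0253 without ctr replicate 3. The class held 72 to 255 cells a library in ctr and 275 to 314 in cko. Its sums held 2169 ± 569.5 CPM of the 5 Treg check genes in ctr and 1894 ± 610.0 in cko, with overlap, so transcripts of Treg type were present in this gate in both groups. Their part in the Bmyc difference was not tested.

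In conventional CD4 cells Myc was at 20.2, 47.2 and 48.5 CPM in ctr and at 24.3, 29.5 and 18.1 CPM in cko, with overlap (-0.68 ± 0.31, adjusted p = 0.717). Max, Mxd1, Mxd4 and Mnt overlapped as well, with log2 changes of -0.02, 0.32, 0.23 and 0.83 (adjusted p from 0.756 to 1). Mnt rested on as little as 1 UMI in a library.

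In the main fits the Myc change was negative in each tested class and was called only in CD8 cells, the cytotoxic T cells. In CD8 cells Myc was at 77, 101 and 88.9 CPM in ctr and at 23, 39.8 and 34.4 CPM in cko, resting on 428 to 1126 UMIs a library. The groups did not overlap. Myc fell 2.74-fold (log2 change -1.50 ± 0.19, adjusted p = 0.0140). The call was kept with cko 1 and cko 3 added together (0.0338) and was lost without ctr replicate 3 (adjusted p = 0.0572) and without cko replicate 3 (0.0844).

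Bmyc also fell in CD8 cells, from 24.6, 16.6 and 20.2 CPM in ctr to 9.23, 11.5 and 11.4 CPM in cko (log2 change -0.99 ± 0.16, adjusted p = 0.0211). The groups did not overlap. The call was lost with cko 1 and cko 3 added together (adjusted p = 0.0860), with the replicate block (0.0541), and without ctr replicate 3 (0.0846), cko replicate 1 (0.0876) or cko replicate 3 (0.104). So 2 of 6 genes were called in CD8 cells, both lower, where 2.42% of all genes were called.

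The partner and the repressors did not pass in CD8 cells. Mxd1 was at 74.7, 47.1 and 63.9 CPM in ctr and at 102, 75.2 and 117 CPM in cko (log2 change 0.62 ± 0.21, adjusted p = 0.175). Mxd4 was at 58.8, 58.6 and 60.5 CPM in ctr and at 86, 63.7 and 88.5 CPM in cko (0.38 ± 0.13, adjusted p = 0.151). Neither gene's groups overlapped, and every cko library was the higher. For Mxd1, DESeq2 gave an adjusted p of 0.0492 and the replicate block 0.0368, and for Mxd4 the fit without cko replicate 2 gave 0.00855. Max overlapped (105 ± 19 and 81.6 ± 6.78 CPM, adjusted p = 0.146), and so did Mnt (11.3 ± 0.946 and 11.7 ± 1.42 CPM, adjusted p = 0.98).

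NK cells, which had the highest Myc, did not show a called difference in it. Myc was at 141, 209 and 192 CPM in ctr and at 148, 157 and 176 CPM in cko, with overlap (log2 change -0.29 ± 0.13, adjusted p = 0.21, and 0.0331 without ctr replicate 1). The genotype difference in Myc was higher by 1.22 ± 0.16 on the log2 scale in NK than in CD8 cells (interaction, adjusted p = 1.79e-04), and this interaction passed in each of its 7 alternatives. Bmyc was at 12.1, 8.72 and 9.34 CPM in ctr and at 7.21, 12 and 5.38 CPM in cko, on as few as 9 UMIs a library, with overlap (adjusted p = 0.341). Max and Mnt overlapped too (adjusted p = 0.851 and 0.948).

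The called changes in NK cells were in the repressors. Mxd1 was at 60.6, 59.2 and 61.6 CPM in ctr and at 137, 109.5 and 157 CPM in cko. The ctr libraries lay close together and every cko library lay above them. Mxd1 rose 2.22-fold (log2 change 1.03 ± 0.13, adjusted p = 0.00161) and passed in all 11 alternatives. Mxd4 was at 57.1, 63 and 53.1 CPM in ctr and at 77.9, 95.3 and 89.7 CPM in cko, without overlap (0.47 ± 0.13, adjusted p = 0.0426). That call was lost in 9 of 11 alternatives: with DESeq2 (0.0846), with cko 1 and cko 3 added together (0.0831), in cells of at least 2000 UMIs (0.0627) and without any 1 of the 6 libraries (0.0567 to 0.157). The 2 called genes, both higher, stand against 5.27% of all genes called in NK cells. The median UMI count of an NK cell was 2750 to 5505 over cko and 8032 to 10593 over ctr libraries, and its part in these changes was tested only by the cells of at least 2000 UMIs. TMM scaling shifted NK fits by 0.13 on the log2 scale between the groups, so fitted changes there are lower than ratios of CPM means by about that amount, and by -0.08 to 0.04 in the other 4 classes.

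Myeloid cells combined lower Bmyc and lower Mxd4 with higher Mxd1. Bmyc was at 48.8, 61 and 54.1 CPM in ctr and at 20.7, 32.6 and 23.1 CPM in cko. The groups did not overlap, and Bmyc fell 2.15-fold (log2 change -1.04 ± 0.15, adjusted p = 0.00232). Mxd4 was at 27.3, 21.7 and 26.6 CPM in ctr and at 11.1, 12.3 and 12.5 CPM in cko. It fell 2.10-fold (-0.98 ± 0.12, adjusted p = 0.00128), and every cko library was below every ctr library. Both calls were kept in all 13 alternatives.

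Mxd1 in myeloid cells went the other way, from 283, 237 and 236 CPM in ctr to 423, 360.4 and 419.5 CPM in cko, with no overlap. It rose 1.59-fold (0.76 ± 0.11, adjusted p = 0.00295). The summed level of 4 neutrophil genes in the same sums was 637, 71.6 and 207 CPM in ctr and 825, 3973 and 448 CPM in cko, with overlap and highest in cko 2. Of the 4, the chemokine receptor gene Cxcr2 (2.54 ± 0.32, adjusted p = 0.00153) and the G-CSF receptor gene Csf3r (0.50 ± 0.13, 0.0290) rose, and S100a8 and S100a9 did not pass (0.247 and 0.303). The median log2 change of the 4 genes was 2.57, so a missed threshold here does not mean a small change. Without cko replicate 2 the Mxd1 change was 0.85 (adjusted p = 0.00118). The part of neutrophil transcripts in the Mxd1 change of the whole class was not tested. Myc was at 17.4, 24.4 and 21.6 CPM in ctr and at 14.9, 22.8 and 16.9 CPM in cko, with overlap (adjusted p = 0.518). Max was lower in each cko library (71.9, 80.6 and 70.6 CPM in ctr, 60.3, 69.4 and 66.2 CPM in cko) without passing (-0.10 ± 0.08, adjusted p = 0.395). Mnt overlapped (0.41 ± 0.17, adjusted p = 0.111), with 0.0401 under the replicate block, 0.0425 without ctr replicate 1 and 0.0300 without cko replicate 2. The 3 of 6 genes called in myeloid cells stand against 22.8% of all genes, so a call in this class is common.

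Set against CD8 cells, the myeloid change in Myc was higher by 1.34 ± 0.13 on the log2 scale (edgeR interaction, adjusted p = 1.81e-04), and that in Mxd4 differed by -1.40 ± 0.14 (adjusted p = 2.65e-04). Of the 6 genes, 2 passed this interaction, where 9.67% of all genes did, and 1 passed that of NK against CD8 cells, where 2.13% did. The Bmyc change did not differ from that in CD8 cells by these tests, in conventional CD4 (-0.58 ± 0.25, adjusted p = 0.493), NK (0.44 ± 0.33, 0.542) or myeloid cells (-0.09 ± 0.21, 0.85). A missed threshold does not show that the changes were alike. No gene of the 6 passed for conventional CD4 against CD8 cells, where 0.739% of all genes did by edgeR, with 3 of 6 at an unadjusted p under 0.05, against 8.45% of all genes. The difference for Myc there was 0.82 ± 0.28 (adjusted p = 0.273).

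**Figure D2:**
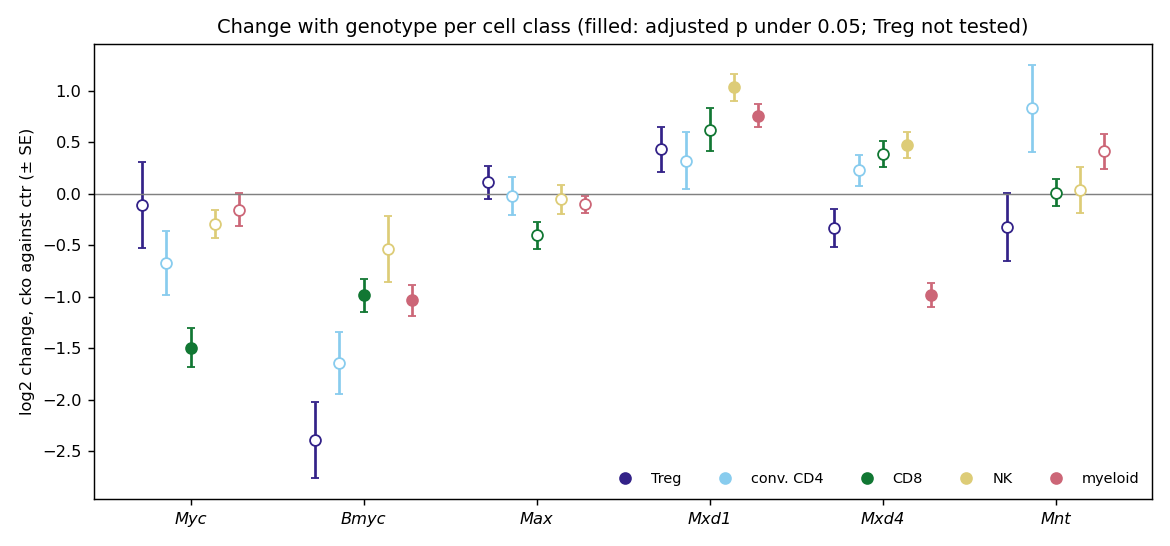
Fitted log2 change of each gene, cko against ctr, in each of the 5 classes, with the standard error as bars; filled points have an adjusted p under 0.05 and Treg cells were not tested. Bmyc lies below 0 in all 5 classes (from -2.40 to -0.54), Myc is lowest in CD8 cells (-1.50), and the called changes of Mxd4 point both ways (0.47 in NK, -0.98 in myeloid cells).

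Other values moved with genotype in the same sums. The summed level of 10 early-response and heat shock genes, which cell handling also induces, was lower in cko without overlap in Treg (9124 ± 1935 against 5871 ± 959 CPM), conventional CD4 (13713 ± 3170.2 against 7163 ± 1129.7), CD8 (7553 ± 1726 against 4329.6 ± 1019.7) and myeloid cells (12543 ± 552 against 8421 ± 748). In NK cells it overlapped (5118 ± 860.1 against 4613 ± 599.9). Myc, known as an early-response gene itself, was lower without overlap in CD8 cells and overlapped in the other 4 classes. The summed level of 8 macrophage genes was 15725 ± 1136 CPM in ctr and 4088 ± 883 in cko myeloid cells, where Bmyc and Mxd4 fell, with no overlap. In CD8 cells it was 74 ± 32.5 and 21.2 ± 9.03 CPM, and in Treg cells 72.9 ± 37.7 and 21 ± 7.44 CPM, again without overlap in either class. The 5 Treg check genes overlapped in CD8 cells (978 ± 203 and 1039.7 ± 20.01 CPM) and in myeloid cells (21.8 ± 7.27 and 23.7 ± 3.06 CPM). The part of these transcripts in the changes of the 6 genes was not tested.

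Cell states were compared next. CD8 cells with a UMI of Havcr2, a marker of exhausted effector cells, and none of Tcf7 made up 7.52 ± 2.48% of kept cells in ctr and 16.5 ± 3.27% in cko. Those with Tcf7, the marker of the stem-like state, and no Havcr2 made up 2.15 ± 0.191% and 2.66 ± 0.165%. Over all 6 libraries, Myc was lower in the Havcr2 than in the Tcf7 state (log2 difference -1.08 ± 0.21, adjusted p = 0.00585), and so was Bmyc (-1.01 ± 0.21, adjusted p = 0.00142). These 2 of 6 passed, where 31.3% of all genes did, and Max, Mxd1, Mxd4 and Mnt did not (adjusted p from 0.121 to 0.664). In ctr libraries alone the Myc difference was -0.66 (adjusted p = 0.00982). Without the library as a block the Myc call was lost (0.0968).

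Within states, the CD8 difference in Myc passed in 3 of 4 sets, and with cko 1 and cko 3 added together in the Havcr2 (0.0187) and non-cycling (0.00255) sets. In Havcr2 cells Myc was at 67.4, 88.9 and 69.1 CPM in ctr and at 19.4, 32 and 29.3 CPM in cko (log2 change -1.50 ± 0.19, adjusted p = 0.00741). Here 1 of 6 genes was called, against 1.76% of all genes. In Tcf7 cells Myc was at 92.5, 106 and 150.1 CPM in ctr and at 62, 102 and 74.7 CPM in cko, with overlap (-0.64 ± 0.22, adjusted p = 0.359). In that smaller set no gene of the 6 was called by edgeR, with 2, Myc and Mxd4, at an unadjusted p under 0.05, against 10% of all genes at that p, and 0.0638% of all genes were called. Whether the change differs between these states was not tested.

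In non-cycling CD8 cells (no UMI of the proliferation genes Mki67 and Top2a) Myc fell from 84.4 ± 9.45 to 27.1 ± 6.18 CPM (-1.71 ± 0.15, adjusted p = 0.00129), and in cycling cells from 92.7 ± 21.8 to 42.3 ± 11.3 CPM (-1.12 ± 0.22, adjusted p = 0.0493, and 0.0812 with cko 1 and cko 3 added together). Bmyc passed in the non-cycling set, at 18.4 ± 2.23 CPM in ctr and 10.3 ± 0.184 in cko (-0.91 ± 0.13, adjusted p = 0.00692), and not in the cycling (0.119), Havcr2 (0.0753) or Tcf7 sets (0.62). In non-cycling cells Mxd1 rose from 64.1 ± 12 to 118 ± 18.2 CPM (0.81 ± 0.16, adjusted p = 0.0265) and Mxd4 from 66.6 ± 1.08 to 92.4 ± 8.60 CPM (0.41 ± 0.09, adjusted p = 0.0251). With cko 1 and cko 3 added together the calls of Mxd1 (adjusted p = 0.0974) and Mxd4 (0.114) were lost, and that of Bmyc was kept (0.0396). So 4 of 6 genes were called in non-cycling cells, where 5.98% of all genes were, and 1 of 6 in cycling cells, where 1.19% were. In cycling cells Mxd1 overlapped (53.6 ± 18.4 and 57 ± 19 CPM), as did Mxd4 (40.9 ± 2.37 and 45.3 ± 14 CPM). Whether these changes differ with cycling was not tested.

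Cycling CD8 cells set against non-cycling ones, over all 6 libraries, had lower levels of the partner and of each repressor. These levels are shares of UMIs. The median UMI count of a cell was 11304 to 15816 in cycling and 6425 to 7548 in non-cycling cells over ctr libraries. Over cko libraries it was 13563 to 18179.5 and 6125 to 6814. Counts of these transcripts per cell were not compared. The log2 difference was -0.90 ± 0.08 for Mxd4 (adjusted p = 2.97e-08), -0.73 ± 0.16 for Mxd1 (0.00618), -0.58 ± 0.12 for Mnt (2.64e-04) and -0.49 ± 0.06 for Max (2.34e-06). Myc was higher (0.34 ± 0.12, adjusted p = 0.0367), a call lost in ctr libraries alone (0.68), with cko 1 and cko 3 added together (0.0824) and without the library as a block (0.697). In ctr libraries alone the difference of Mxd1 was -0.32 (adjusted p = 0.0100). Bmyc did not pass (0.26 ± 0.13, adjusted p = 0.106). The 5 of 6 called stand against 55.9% of all genes.

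**Figure D3:**
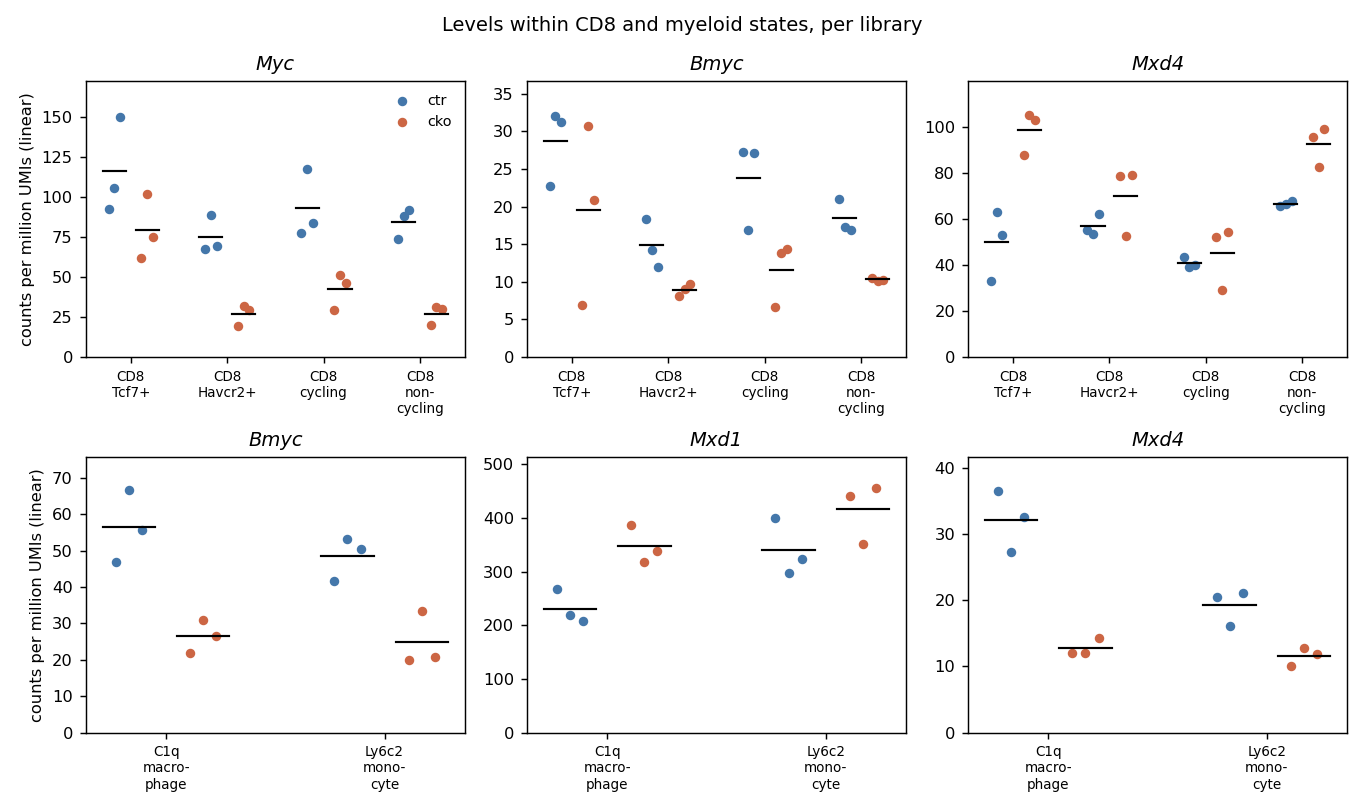
Levels in CPM within cell states, per library (points) with group means, ctr beside cko. Myc is separated by genotype in the Havcr2, cycling and non-cycling CD8 sets and overlaps in the Tcf7 set, and Bmyc and Mxd4 are separated in both C1q macrophages and Ly6c2 monocytes.

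Myeloid cells were split into macrophages with 5 or more UMIs of C1q, the complement genes of tissue macrophages, and monocytes with 2 or more Ly6c2 UMIs and fewer C1q UMIs. The macrophages made up 19.8 ± 6.17% of kept cells in ctr and 8.18 ± 2.74% in cko. Mxd4 was higher in macrophages than in monocytes (log2 difference 0.56 ± 0.10, adjusted p = 7.23e-04), and Mxd1 was lower (-0.38 ± 0.07, adjusted p = 0.00182). Bmyc was slightly higher (0.21 ± 0.07, adjusted p = 0.0314). Myc (0.43 ± 0.12, adjusted p = 0.0213) and Max (-0.19 ± 0.06, 0.0339) passed over all 6 libraries but not in ctr alone (0.273 and 0.337) or with cko 1 and cko 3 added together (0.0506 and 0.0810). The 5 of 6 called stand against 20.3% of all genes, and without the library as a block all 5 calls were lost (adjusted p from 0.201 to 0.771).

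The genotype differences in Bmyc and Mxd4 passed in both states. In macrophages Mxd4 was at 36.5, 27.2 and 32.6 CPM in ctr and at 12.1, 12 and 14.2 CPM in cko (-1.21 ± 0.16, adjusted p = 3.75e-04). In monocytes it was at 20.5, 16.1 and 21.1 CPM in ctr and at 10.1, 12.8 and 11.9 CPM in cko (-0.67 ± 0.17, adjusted p = 0.0412). The groups overlapped in neither state. Bmyc changed by -1.01 ± 0.15 in macrophages (adjusted p = 9.22e-04) and by -0.96 ± 0.17 in monocytes (0.0140). Mxd1 passed in macrophages (0.69 ± 0.13, adjusted p = 0.00290) and not in monocytes (0.34 ± 0.15, 0.201), and this difference was not tested. In the macrophages the neutrophil gene Csf3r was at 47.8 ± 5.73 CPM in ctr and 46.1 ± 8.23 in cko (adjusted p = 0.786), S100a8 and S100a9 did not pass (0.759 and 0.898), and Cxcr2 was under the filter. So 3 of 6 genes were called in macrophages, against 21.5% of all genes, and 2 of 6 in monocytes, against 5.09%. With cko 1 and cko 3 added together both calls in monocytes were lost (adjusted p = 0.0811 for Bmyc and 0.144 for Mxd4), and the 3 in macrophages were kept.

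In Treg cells, those with a Ccr8 UMI had a lower level of Mxd1 than those without over all 6 libraries (-0.42 ± 0.11, adjusted p = 0.0240). That call was lost with cko 1 and cko 3 added together (0.0550) and in ctr libraries alone (0.372). This 1 of 6 stands against 4.12% of all genes. Bmyc was at 472, 199 and 234 CPM in Ccr8-positive and at 262, 161 and 129 CPM in Ccr8-negative ctr Treg cells. Each ctr library was thus the higher in its Ccr8-positive cells, while over all 6 libraries the difference did not pass (0.69 ± 0.22, adjusted p = 0.14, and 0.00268 in ctr alone).

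Cells with a UMI were counted as well, and Bmyc was separated in the same classes. These shares come from the same counts as the levels, for Bmyc and Myc alike, so they add no separate support. Each cell was thinned to 2000 UMIs, so that all cells have that depth, and shallower cells were left out (26.6% of NK cells in cko and 10.6% in ctr, and at most 10.2% in the other classes). A Bmyc UMI was then present in 43.2%, 27.4% and 29% of ctr and in 8.41%, 9.14% and 8.33% of cko Treg cells, with no overlap. In conventional CD4 cells the share was 10.4 ± 2.05% in ctr and 5.20 ± 1.01% in cko, in CD8 cells 3.43 ± 0.407% and 2.11 ± 0.0360%, and in myeloid cells 9.50 ± 1.35% and 4.23 ± 1.09%. None of these groups overlapped, and the exact two-sided permutation p was 0.1 in each of these 3 classes, the smallest that 3 against 3 can give (0.2 adjusted over 8 tests of both genes). In NK cells, where Bmyc was lowest, 1.61 ± 0.335% and 1.40 ± 0.529% of cells held a UMI at the same depth, with overlap (exact permutation p = 0.5). Without thinning the NK shares were 9.40 ± 2.64% and 4.52 ± 1.61%, with no overlap, beside the lower UMI counts of cko NK cells given above. The unthinned shares in Treg cells were 60.1 ± 5.15% and 22.4 ± 1.92%.

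For Myc the share of CD8 cells with a UMI was 10.9%, 13.3% and 12.2% in ctr and 3.54%, 5.42% and 4.72% in cko, with no overlap (exact permutation p = 0.1). In NK cells it was 24.6 ± 3.00% and 20.8 ± 1.47% (exact permutation p = 0.3), and in conventional CD4 cells 6.01 ± 1.99% and 4.21 ± 1.87% (exact permutation p = 0.3). In myeloid cells, which had the least Myc, it was 3.34 ± 0.766% and 2.96 ± 0.753% (exact p = 0.7), beside 4.56 ± 0.953% in cko CD8 cells. Adjusted over the 8 tests these p-values are 0.2 in CD8, 0.4 in NK and conventional CD4 and 0.7 in myeloid cells. Unthinned, the Myc shares in CD8 cells were 28.1 ± 3.98% and 12.3 ± 2.60%.

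**Figure D4:**
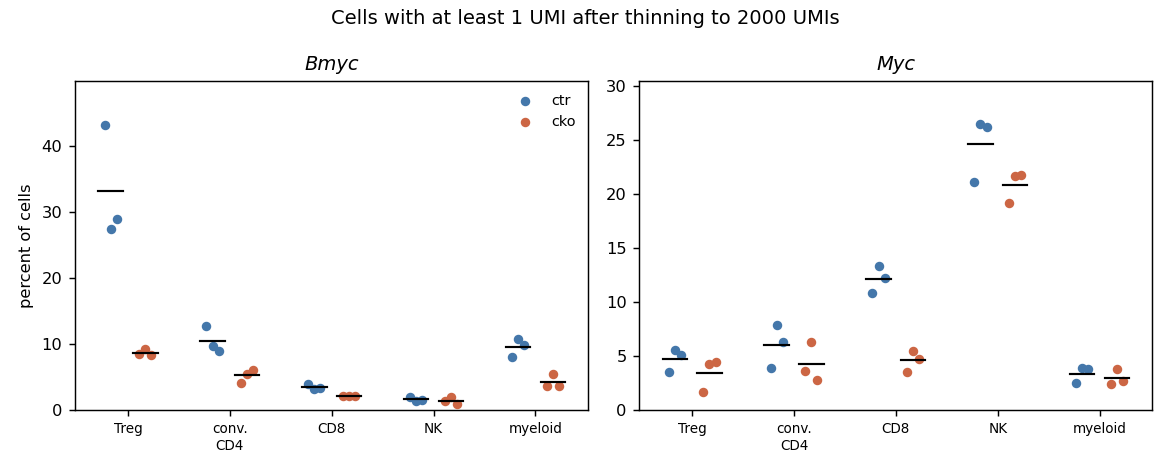
Percent of cells with at least 1 UMI of Bmyc or Myc after thinning every cell to 2000 UMIs, per library (points) with group means, ctr beside cko, in the 5 classes. Bmyc is separated by genotype in Treg, conventional CD4, CD8 and myeloid cells and overlaps in NK cells, and Myc is separated in CD8 cells.

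Of 8 other genes of the extended network, 5 were tested in every class (Mxi1, Mxd3, Mga, Mlx, Mlxip) and Mycl in myeloid cells alone. Mxi1, a further repressor that pairs with MAX, rose in myeloid cells from 45 ± 18.2 to 94.2 ± 7.02 CPM (1.16 ± 0.27, adjusted p = 0.0257). The call was lost in 7 of 13 alternatives, among them with cko 1 and cko 3 added together (adjusted p = 0.0914) and without ctr 3, cko 1, cko 2 or cko 3 (0.0664 to 0.0979). In myeloid cells it was the 1 of 6 network genes called, against 22.8% of all genes. Mxi1 did not pass in CD8 (0.52, adjusted p = 0.251), conventional CD4 (1.09, 0.723) or NK cells (0.65, 0.574). Mxd3, a repressor of dividing cells, fell in NK cells from 7.37 ± 2.87 to 1.76 ± 1.54 CPM (-2.03 ± 0.55, adjusted p = 0.0451), on 97 UMIs in ctr and 8 in cko. The call was lost in 5 of 8 alternatives. It was lost in cells of at least 2000 UMIs (adjusted p = 0.0851) and with cko 1 and cko 3 added together (0.105). It was also lost without cko 1, cko 2 or cko 3 (0.0951 to 0.151). Mga, Mlx and Mlxip passed in none of the 4 tested classes, and the lowest adjusted p among them was that of Mga in myeloid cells (0.35, 0.0526). Mycl, a MYC paralog, did not pass (-0.83, adjusted p = 0.24), and Mycn and Mlxipl were under the filter in every class.

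Of 14 regulators of MYC and its complexes 1 passed, in CD8 and in myeloid cells, and none in NK or conventional CD4 cells by edgeR, where 3 and 1 had an unadjusted p under 0.05, against 22.5% and 6.92% of all genes. Of all genes 2.42% were called in CD8 and 22.8% in myeloid cells. Pim1, a kinase that stabilises MYC, rose in CD8 cells from 111 ± 23.8 to 214 ± 10.9 CPM (0.91 ± 0.14, adjusted p = 0.0165) and in myeloid cells from 781 ± 34.3 to 916 ± 47.3 CPM (0.31 ± 0.07, adjusted p = 0.0182). The CD8 call was lost in 5 of 16 alternatives, among them with cko 1 and cko 3 added together (adjusted p = 0.0754) and without ctr 2, cko 1 or cko 3 (0.0634 to 0.0950). The myeloid call was lost with cko 1 and cko 3 added together (adjusted p = 0.0595), without ctr 2 (0.0810), ctr 3 (0.0630), cko 1 (0.0637) or cko 3 (0.0589), and in Ly6c2 monocytes, where the change was -0.01 (0.981). Ncor1, a corepressor, did not pass in CD8 (0.15 ± 0.08, adjusted p = 0.355) or myeloid cells (0.11 ± 0.10, 0.466).

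Of 18 ribosome biogenesis targets of MYC none was called in CD8 cells, where Myc fell, with a median log2 change of -0.31 against 0.00428 for all genes tested by edgeR, and with 4 at an unadjusted p under 0.05, against 18.5% of all genes. The nucleolar proteins Npm1 (-0.19, adjusted p = 0.565) and Ncl (-0.20, 0.385) are the most abundant of them. In NK cells, where Myc did not pass, 5 of 18 fell and none rose, against 5.27% of all genes called in either direction, with a median of -0.36 against 0.02. Nop16 changed by -0.74 (adjusted p = 0.0128), Pa2g4 by -0.67 (0.00503) and Fbl, the nucleolar methyltransferase, by -0.53 (0.0125). The call of Pa2g4 was kept in all 11 alternatives. That of Nop16 was lost in 2 of 11 alternatives: without cko 1 or cko 3 (0.0570 to 0.0785). That of Fbl was lost in 2 of 11 alternatives: in cells of at least 2000 UMIs (0.0623) and without cko 3 (0.0781). Of the other 2, the call of Nop56 was lost in 5 of 11 alternatives. It was lost in cells of at least 2000 UMIs (adjusted p = 0.0539) and with cko 1 and cko 3 added together (0.0523). It was also lost without ctr 2, ctr 3 or cko 3 (0.0530 to 0.0923). The call of Ncl was lost in 8 of 11 alternatives. It was lost in cells of at least 2000 UMIs (adjusted p = 0.117) and with cko 1 and cko 3 added together (0.117). It was also lost without ctr 1, ctr 2, ctr 3, cko 1, cko 2 or cko 3 (0.0577 to 0.161). In myeloid cells, where 22.8% of all genes were called, 1 of 18 fell, Dkc1 (-0.58, adjusted p = 0.0467). That call was lost in 8 of 13 alternatives, among them with cko 1 and cko 3 added together (adjusted p = 0.145) and without ctr 1, ctr 2, ctr 3, cko 1 or cko 3 (0.0509 to 0.175). In conventional CD4 cells none of 17 was called, with 0 at an unadjusted p under 0.05, against 6.92% of all genes. The difference between classes was not tested for these lists.

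Of 18 growth and metabolism targets, 1 rose in CD8 cells and none fell, where 2.42% of all genes were called. This was Odc1, the first enzyme of polyamine synthesis (0.56, adjusted p = 0.0282), while Ldha (-0.17, 0.648) and Pkm (-0.04, 0.887), enzymes of late glycolysis, did not pass, and the list's median was -0.23. The Odc1 call was lost in 8 of 16 alternatives, among them with cko 1 and cko 3 added together (adjusted p = 0.126) and without ctr 2, ctr 3, cko 1 or cko 3 (0.0880 to 0.157). In NK cells, where 5.27% of all genes were called, 3 fell, among them Nme1 (-0.65, adjusted p = 0.00238) and the cell cycle kinase Cdk4 (-0.52, 0.0175), and Odc1 rose (0.55, 0.0241). The call of Nme1 was kept in all 11 alternatives. That of Cdk4 was lost in 3 of 11 alternatives: in cells of at least 2000 UMIs (0.0733) and without cko 2 or cko 3 (0.0616 to 0.0980). That of Odc1 was lost in 4 of 11 alternatives. These were cells of at least 2000 UMIs (0.119) and fits without ctr 2, ctr 3 or cko 2 (0.0773 to 0.0958). In myeloid cells 6 rose and 3 fell, which is 9 of 18 against 22.8% of all genes, with a median of 0.26 against -0.01 for all genes. Hk2, the hexokinase that opens glycolysis, rose there by 0.88 (adjusted p = 0.00116), Pkm by 0.37 (0.0144) and Ldha by 0.28 (0.0412). Shmt2, a mitochondrial serine enzyme (-0.63, adjusted p = 0.00598), and Srm, the spermidine synthase (-0.55, 0.0387), fell. The call of Hk2 was kept in all 13 alternatives, and that of Shmt2 was lost in 1 of 13 alternatives, in Ly6c2 monocytes (0.244). That of Pkm was lost in 5 of 13 alternatives, among them with cko 1 and cko 3 added together (adjusted p = 0.0593) and without ctr 3, cko 1 or cko 3 (0.0591 to 0.0676), that of Ldha lost in 8 of 13 alternatives, among them with cko 1 and cko 3 added together (adjusted p = 0.129) and without ctr 2, ctr 3, cko 1 or cko 3 (0.109 to 0.171), and that of Srm lost in 6 of 13 alternatives, among them with cko 1 and cko 3 added together (adjusted p = 0.108) and without ctr 2, ctr 3, cko 1 or cko 3 (0.118 to 0.13). Of the 9 calls, 7 were lost with cko 1 and cko 3 added together, those of Pkm, Ldha, Srm, Cdk4 (adjusted p = 0.0626), Eif4e (0.101), Odc1 (0.0602) and Slc3a2 (0.153). None of the 18 passed in conventional CD4 cells by edgeR, with 1 at an unadjusted p under 0.05, against 6.92% of all genes. In Treg cells the median log2 change was 0.17 over the 18 ribosome biogenesis targets and 0.16 over the 18 growth and metabolism targets, against 0.02 over all genes, and none of either list was called.

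Genes next to both loci were read in the same fits. Of those that start within 250 kb of Bmyc, 6 were tested in the T and NK classes (Paxx, Fbxw5, Traf2, Edf1, Phpt1 and Rabl6), and none passed in Treg, conventional CD4, CD8 or NK cells. Their log2 changes in Treg cells ran from -0.24 to 0.26, beside -2.40 for Bmyc. In myeloid cells 2 of 7 passed, against 22.8% of all genes, Tmem141 (-0.65 ± 0.12, adjusted p = 0.00658) and Phpt1 (-0.37 ± 0.10, 0.0276). The call of Tmem141 was lost in 1 of 13 alternatives, in Ly6c2 monocytes (adjusted p = 0.0787). That of Phpt1 was lost in 7 of 13 alternatives. It was lost with cko 1 and cko 3 added together (0.0557) and without ctr 2, ctr 3, cko 1 or cko 3 (0.0507 to 0.117). It was also lost within C1q macrophages (0.242) and Ly6c2 monocytes (0.225). A230005M16Rik, an antisense gene that overlaps Bmyc, was under the filter, at 14 UMIs in ctr and 1 in cko Treg cells. The sources used here do not state whether counting used strand, so reads of Bmyc and of this gene cannot be told apart. Beside Myc, the noncoding gene Pvt1, which starts 52.6 kb after it, fell in CD8 cells from 31.2 ± 5.58 to 17.9 ± 3.24 CPM (-0.85 ± 0.17, adjusted p = 0.0416), where Myc fell too. This call was lost in 8 of 16 alternatives, among them with cko 1 and cko 3 added together (adjusted p = 0.152) and without ctr 1, ctr 3, cko 1 or cko 3 (0.105 to 0.187). Pvt1 also fell in myeloid cells, from 11.3 ± 1.91 to 5.66 ± 0.312 CPM (-0.90 ± 0.16, adjusted p = 0.00590), where Myc did not pass. This myeloid call was lost in 2 of 13 alternatives, those within C1q macrophages (0.0549) and within Ly6c2 monocytes (0.145). In NK cells Pvt1 overlapped (28.7 ± 2.72 and 30.7 ± 7.62 CPM, adjusted p = 0.869).

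By likeness of pattern over the 30 sums of class and library, among 6005 genes with a mean log2 CPM of 4 or more, Bmyc was nearest to Cd81 (Pearson r = 0.91), Itm2c (0.87), H2afz (0.86), Ebi3 (0.85) and H1f0 (0.85). Myc was nearest to Ftsj3 (Pearson r = 0.89), Hes6 (0.89), Lta4h (0.89), Nop10 (0.88) and Upf1 (0.88). The 30 sums share 6 libraries, so these values are a description.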

How the data were processed

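For 6 libraries the authors deposited raw counts of UMIs by gene and barcode, made with Cell Ranger 7.0.0 on GRCm38 (mm10), per the submitters' processing notes, and contig tables with UMI counts per T cell receptor chain. No source used here states a removal of doublets or free RNA, or the strand used in counting. Of 41679 barcodes (45322797 to 55515267 UMIs a library), cells were kept with at least 300 genes, 500 UMIs and at most 10% mitochondrial counts. Scrublet's own cutoff marked 147 barcodes (0.353%), which is not a working threshold. The highest scores were therefore removed at 0.8% per 1000 barcodes, 2276 cells, which left 18415 ctr and 18733 cko cells. Pairs of libraries shared 33 to 71 barcodes.

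T cells had at least 2 Cd3 UMIs, at most 2 of 9 myeloid genes, and no Cd79a or Trdc. CD4 cells had Cd4 and no Cd8, and were Treg with Foxp3, or with Il2ra and Ikzf2, and conventional with none of these. CD8 cells had Cd8a or Cd8b1 and no Cd4 or Foxp3. NK cells had Ncr1 or Klrb1c and no Cd3, and myeloid cells had at least 3 of the myeloid genes (Csf1r, Cd68, Adgre1, Itgam, Cybb, Spi1, Lst1, Cd14, Lyz2) and no Cd3. Clec7a, planned as a further myeloid gene, was not used here. Of 4168 CD4 cells, 1187 fell in neither CD4 class.

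Counts were summed per library and class and tested with edgeR 4.0.16 (R 4.3.3; TMM scaling, filterByExpr, quasi-likelihood, Benjamini-Hochberg over all genes tested, threshold 0.05). All 6 genes passed the filter in all 5 classes. SE is the log2 change over the root of F. Class and state fits have the library as a block. The alternatives were DESeq2 1.42.0, no filter, cells with at least 2000 UMIs, a replicate block, cko 1 and cko 3 added together and leaving out each library. Fits within states, with and without cko 1 and cko 3 added together, class fits without TMM and the alternatives for the other genes named were added after the data were seen. The fit by genotype was run on simulated counts for Treg and CD8 sums only, and the other fits were not. The genes named are the 6 genes, the 8 extended network genes where tested, from each list the 2 most abundant and up to 3 called with the largest change, and tested neighbours. The 6 genes and the lists were chosen with earlier results of these data known. The p-values cover the spread between libraries, which the labels call biological replicates.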

Additional observations from a re-analysis of the deposited data

Results flagged for a closer look

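The change of Myc with genotype differed between classes by the edgeR interaction test. In NK cells it was higher than in CD8 cells by 1.22 on the log2 scale (adjusted p = 1.79e-04): in CD8 cells Myc was below every ctr library in 3 of 3 cko libraries, and in NK cells the groups overlapped. In myeloid cells it was higher than in CD8 cells by 1.34 (adjusted p = 1.81e-04), again with overlapping groups in the myeloid cells. The change of Mxd4 differed by -1.40 between myeloid and CD8 cells (adjusted p = 2.65e-04): Mxd4 was lower in 3 of 3 cko libraries in myeloid cells, and in CD8 cells it was higher in 3 of 3 without passing the test.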

How the results depend on the processing

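Numbers in brackets are those of the report's own fits, and alternatives not given for a comparison moved no count of calls by over 1.5 times, no share by over 1 SD and no sign. With DESeq2, genes called numbered 175 (96) in Treg cells, 34 (6) in conventional CD4 cells and 590 (283) in CD8 cells and calls among the 6 genes numbered 1 (0) in conventional CD4 cells and 1 (2) in NK cells. Without the filter on low counts, genes called numbered 288 (96) in Treg cells, 169 (6) in conventional CD4 cells and 1069 (486) in NK cells, calls among the 6 genes numbered 1 (0) in conventional CD4 cells and the log2 difference was 0.0095 (-0.020) for Max in conventional CD4 cells, -0.0074 (0.035) for Mnt in NK cells and 0.030 (-0.0067) for Max in myeloid against NK. With cko 1 and cko 3 added together, genes called numbered 28 (96) in Treg cells, 1 (6) in conventional CD4 cells, 0 (5) in Tcf7-positive CD8 cells, 45 (190) in Havcr2-positive CD8 cells, 46 (121) in cycling CD8 cells, 110 (635) in non-cycling CD8 cells, 46 (283) in CD8 cells, 212 (486) in NK cells, 129 (527) in Ly6c2 monocytes, 1334 (2673) in myeloid cells, 46 (85) in the interaction of conventional CD4 against CD8, 166 (250) in the interaction of NK against CD8 and 675 (1293) in the interaction of myeloid against CD8. For cko 1 and cko 3 added together calls among the 6 genes numbered 0 (1) in cycling CD8 cells, 2 (4) in non-cycling CD8 cells, 1 (2) in CD8 cells, 1 (2) in NK cells, 0 (2) in Ly6c2 monocytes and 3 (5) in C1q macrophage against Ly6c2 monocyte. This alternative gave log2 differences of 0.047 (-0.020) for Max in conventional CD4 cells, -0.050 (0.061) for Mxd1 in cycling CD8 cells and -0.029 (0.0093) for Mnt in CD8 cells. With Treg cells gated by Foxp3 alone, genes called numbered 30 (96) in Treg cells and the log2 difference was 0.15 (-0.32) for Mnt in Treg cells. In Ccr8-negative Treg cells, genes called numbered 40 (96) in Treg cells and the log2 difference was -0.094 (0.11) for Max in Treg cells. With the replicate block, genes called numbered 21 (6) in conventional CD4 cells and calls among the 6 genes numbered 1 (0) in conventional CD4 cells. In cells with a TRB contig, genes called numbered 11 (6) in conventional CD4 cells. In Tcf7-positive CD8 cells, genes called numbered 5 (283) in CD8 cells and calls among the 6 genes numbered 0 (2) in CD8 cells. In Havcr2-positive CD8 cells, calls among the 6 genes numbered 1 (2) in CD8 cells and the log2 difference was -0.018 (0.0093) for Mnt in CD8 cells. In cycling CD8 cells, genes called numbered 121 (283) in CD8 cells, calls among the 6 genes numbered 1 (2) in CD8 cells and the log2 difference was -0.10 (0.0093) for Mnt in CD8 cells. In non-cycling CD8 cells, genes called numbered 635 (283) in CD8 cells and calls among the 6 genes numbered 4 (2) in CD8 cells. In cells of at least 2000 UMIs, genes called numbered 144 (486) in NK cells, calls among the 6 genes numbered 1 (2) in NK cells and the log2 difference was 0.0034 (-0.0067) for Max in myeloid against NK. In C1q macrophages, the log2 difference was 0.12 (-0.16) for Myc in myeloid cells. In Ly6c2 monocytes, genes called numbered 527 (2673) in myeloid cells and the log2 difference was -0.0063 (0.31) for Pim1 in myeloid cells. With no replicate block, genes called numbered 786 (1180) in conventional CD4 against Treg, 2098 (3186) in Havcr2 against Tcf7 CD8, 2 (339) in Ccr8 against Ccr8-negative Treg and 626 (2270) in C1q macrophage against Ly6c2 monocyte, calls among the 6 genes numbered 1 (2) in Havcr2 against Tcf7 CD8, 0 (1) in Ccr8 against Ccr8-negative Treg and 0 (5) in C1q macrophage against Ly6c2 monocyte and the log2 difference was 0.0049 (-0.0067) for Max in myeloid against NK. With cko in place of ctr libraries, genes called numbered 2357 (3679) in CD8 against Treg. For cko in place of ctr libraries calls among the 6 genes numbered 3 (5) in CD8 against Treg, 3 (5) in CD8 against conventional CD4 and 3 (5) in NK against conventional CD4. This alternative gave log2 differences of -0.41 (0.15) for Myc in conventional CD4 against Treg, 0.38 (-0.22) for Mxd4 in conventional CD4 against Treg, 0.78 (-0.44) for Mnt in conventional CD4 against Treg, -0.12 (0.77) for Mnt in CD8 against conventional CD4, 0.092 (-0.46) for Myc in myeloid against conventional CD4, 0.34 (-0.12) for Bmyc in myeloid against conventional CD4, 0.17 (-0.18) for Max in NK against CD8, 0.32 (-0.094) for Mxd1 in NK against CD8 and 0.10 (-0.19) for Max in myeloid against CD8. With library size scaling without TMM, the log2 difference was -0.19 (0.25) for Max in myeloid against conventional CD4. In ctr libraries alone, genes called numbered 2005 (3186) in Havcr2 against Tcf7 CD8 and 193 (339) in Ccr8 against Ccr8-negative Treg, calls among the 6 genes numbered 3 (5) in C1q macrophage against Ly6c2 monocyte and the log2 difference was 0.19 (-0.20) for Mxd4 in Havcr2 against Tcf7 CD8, 0.10 (-0.13) for Mnt in Havcr2 against Tcf7 CD8 and -0.016 (0.043) for Mnt in C1q macrophage against Ly6c2 monocyte. Without thinning, the difference in the share of cells, cko minus ctr in percentage points, was -37.7 (-24.6) for Bmyc in Treg cells, -4.37 (-1.32) for Bmyc in CD8 cells, -4.88 (-0.206) for Bmyc in NK cells, -17.4 (-5.27) for Bmyc in myeloid cells, -15.8 (-7.55) for Myc in CD8 cells, -16.5 (-3.75) for Myc in NK cells and -2.94 (-0.384) for Myc in myeloid cells. With cells thinned to 1000 UMIs, the difference in the share of cells, cko minus ctr in percentage points, was -16.3 (-24.6) for Bmyc in Treg cells, -0.765 (-1.32) for Bmyc in CD8 cells, -2.77 (-5.27) for Bmyc in myeloid cells and -4.37 (-7.55) for Myc in CD8 cells. Leaving out 1 library at a time, genes called ranged from 6 to 240 (96) in Treg cells, 1 to 87 (6) in conventional CD4 cells, 8 to 694 (283) in CD8 cells, 117 to 435 (486) in NK cells, 1209 to 3003 (2673) in myeloid cells, 368 to 923 (1180) in conventional CD4 against Treg, 1184 to 1870 (2375) in CD8 against conventional CD4, 2394 to 3234 (3975) in NK against conventional CD4, 2777 to 3489 (4311) in NK against CD8, 42 to 156 (85) in the interaction of conventional CD4 against CD8, 99 to 400 (250) in the interaction of NK against CD8 and 571 to 1708 (1293) in the interaction of myeloid against CD8. Calls among the 6 genes then ranged from 0 to 1 (0) in conventional CD4 cells, 0 to 3 (2) in CD8 cells, 1 to 2 (2) in NK cells, 0 to 1 (1) in conventional CD4 against Treg, 3 to 5 (5) in CD8 against conventional CD4 and 1 to 2 (1) in NK against CD8. Leaving out 1 library also reversed a sign, with log2 differences ranging from -0.18 to 0.12 (-0.020) for Max in conventional CD4 cells, -0.060 to 0.10 (0.0093) for Mnt in CD8 cells, -0.26 to 0.038 (-0.055) for Max in NK cells, -0.10 to 0.11 (0.035) for Mnt in NK cells, -0.14 to 0.32 (0.15) for Myc in conventional CD4 against Treg, -0.22 to 0.020 (-0.11) for Mxd1 in conventional CD4 against Treg, -0.98 to 0.049 (-0.44) for Mnt in conventional CD4 against Treg, -0.44 to 0.39 (-0.12) for Bmyc in myeloid against conventional CD4, -0.22 to 0.078 (-0.094) for Mxd1 in NK against CD8, -0.056 to 0.10 (-0.0067) for Max in myeloid against NK, -0.11 to 0.19 (0.063) for Mxd4 in the interaction of NK against CD8, -0.067 to 0.028 (-0.0049) for Mnt in the interaction of NK against CD8 and -0.33 to 0.11 (-0.086) for Bmyc in the interaction of myeloid against CD8. Samples with the same replicate number deviated together weakly at most (r of deviations from group means -0.14 to 0.19). Of 6 samples, 1, 2, 3, 3 and 1 were nearest to their own number in the 5 classes. This comparison cannot exclude that the numbers pair samples, and the main fits by genotype use no pairing. The replicate block moved genes called from 96 to 67 in Treg, 6 to 21 in conventional CD4, 283 to 275 in CD8, 486 to 702 in NK and 2673 to 2325 in myeloid cells. Of 1106 differences of the 6 genes under alternatives, 958 kept the direction and the side of the threshold, 75 lost a call, 25 gained one and 48 turned the sign. These reversals were of differences that had not passed, or, in Treg cells, were not tested. The causes were not tested. Gates by few transcripts leave cells out.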
